A study of Mus musculus with 6 samples.

Results

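Alveolar macrophages, the resident macrophages of the airspaces, were followed here through 9 genes commonly used to recognise them: Siglecf, Marco, Chil3, Ear1, Ear2, Fabp4, Fabp5, Car4 and Pparg. The 9 were taken by gene symbol from the 31130 genes listed for each tumor, and all 9 had UMIs (unique molecular identifiers, a count of captured RNA molecules) in all 6 tumors. Tumor tissue had been taken on day 21 from the lungs of female C57BL/6 mice that were 6 to 8 weeks old and of wild-type genotype. All mice carried eGFP-expressing LLC cells (a line from the Lewis lung carcinoma of the mouse), which had been injected on day 14 into the left lung through the pleura. In the IP + LC model (lung cancer with interstitial pneumonia, n = 3) bleomycin, which damages the lung and is used to model its fibrosis, had been given at 2.0 mg/kg body weight into the oropharynx 14 days before the cells, and the LC model (lung cancer alone, n = 3) had not received it. The submitters describe the material as lung cancer cells, but the tissue was not sorted, and its RNA is that of cancer cells together with lung and immune cells of the host.

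Alveolar macrophages take up inhaled particles and spent surfactant, the lipid film that type 2 alveolar cells secrete. Granulocyte-macrophage colony-stimulating factor (GM-CSF), a cytokine from the alveolar epithelium, signals through its receptor and STAT5 to induce PPARγ, a nuclear receptor for lipids that is needed for the identity of these cells, and TGF-β acts in the same direction. Of the 9 genes, Siglecf and Marco encode surface receptors, Chil3, Ear1 and Ear2 secreted proteins, Fabp4 and Fabp5 carriers of fatty acids, Car4 a membrane-bound enzyme and Pparg the regulator. None of the 9 is exclusive to alveolar macrophages: Siglecf and the Ear genes are also known in eosinophils, Chil3 in neutrophils, Fabp4 and Car4 in lung capillary endothelium, and Fabp4 and Pparg in fat cells.

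The libraries held 592733 to 1379759 UMIs in the LC and 1336919 to 1631066 in the IP + LC group. Levels are given as CPM, counts scaled to library size and adjusted by the trimmed mean of M-values (TMM), and 3 UMIs, the limit that a count of 0 allows, correspond to 1.84 to 5.06 CPM before this scaling. LC replicate 1, the library with the fewest UMIs, stood apart: the Pearson correlation of its log2 CPM across genes with the other LC libraries was 0.777 to 0.820, against 0.957 between LC replicates 2 and 3 and 0.962 to 0.969 within the IP + LC group. Its correlation with the IP + LC libraries was 0.773 to 0.801, about the same as with its own group, and it was closer to IP + LC replicates 1 and 3 (0.793 and 0.801) than to LC replicate 3 (0.777). Results are therefore also given without it. Each group had 3 tumors, and the p-values measure the spread between these tumors.

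All 9 genes were lower in tumors of the IP + LC model than in those of the LC model, by 1.87-fold to 13.0-fold in the edgeR fit, and for each of the 9 every IP + LC tumor lay below every LC tumor. In the edgeR quasi-likelihood test with Benjamini-Hochberg adjustment over 11240 genes and a limit of 0.1 for the adjusted p, 9 of the 9 passed as lower and 0 as higher. Of all tested genes 19.6% passed as lower and 16.8% as higher, 36.4% in either direction, and 21.5% had all IP + LC tumors below all LC tumors. The median log2 fold change of the 9 was -2.48, against 0.018 for all tested genes. Without LC replicate 1 all 9 again passed as lower, when 28.7% of 11748 genes did so. The filter on low counts asked for 7.41 CPM in 3 libraries. Chil3, Ear2, Fabp4, Fabp5 and Car4 exceeded it in all 6 libraries, while Siglecf, Marco, Ear1 and Pparg passed it through the LC group, with 0, 2, 1 and 1 of the IP + LC libraries above it. When every gene with a UMI in any library was tested, all 9 passed as lower, against 8.51% of 29423 genes.

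**Figure D1:**
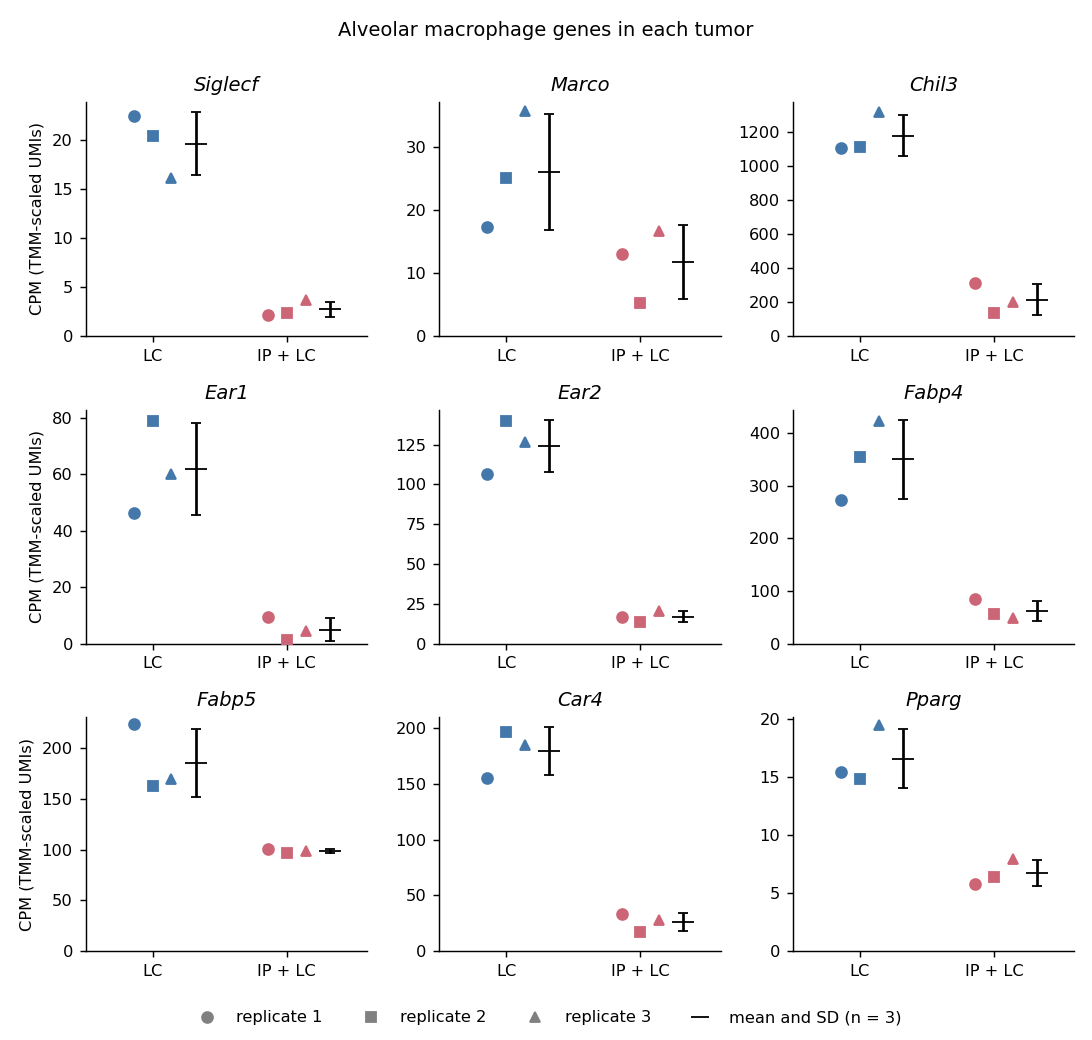
Level of each of the 9 genes in every tumor, in CPM after TMM scaling on a linear axis from 0 that differs between panels; symbols mark the replicate and bars the mean and SD of 3 tumors. In every panel the 3 IP + LC tumors lie below the 3 LC tumors, with the narrowest gap for Marco (17.2 CPM in LC replicate 1 and 16.7 CPM in IP + LC replicate 3).

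Siglecf (ENSMUSG00000039013, GRCm38 chr7:43351341-43359531, plus strand) encodes Siglec-F, a receptor for sialic acid that is used in flow cytometry to separate alveolar from interstitial macrophages. Its level was 22.4, 20.4 and 16.1 CPM in LC replicates 1, 2 and 3 and 2.18, 2.34 and 3.63 CPM in the IP + LC replicates, from 13, 26 and 19 against 3, 4 and 5 UMIs. The groups were far apart relative to their spread, and the IP + LC values lay close to the limit of detection. The level fell from 19.6 ± 3.21 CPM (SD, n = 3) to 2.71 ± 0.798 CPM, a fitted fold of 6.95 and a log2 fold change of -2.80 (SE 0.37, 95% interval -3.63 to -1.97, edgeR adjusted p = 0.00146). Leaving out LC replicate 1 gave a log2 fold change of -2.72.

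Marco (ENSMUSG00000026390, chr1:120474538-120505024, minus strand) encodes a class A scavenger receptor that binds bacteria and inhaled particles. Its level was 17.2, 25.1 and 35.6 CPM in the LC tumors and 13.05, 5.25 and 16.7 CPM in the IP + LC tumors. The highest IP + LC tumor came within 1 CPM of the lowest LC tumor, so that Marco had the narrowest gap of the 9 genes on this scale. The level fell from 26.0 ± 9.22 to 11.7 ± 5.85 CPM, with a log2 fold change of -1.23 (SE 0.42, 95% interval -2.19 to -0.28, edgeR adjusted p = 0.0592). This call depended on single tumors: it was lost without LC replicate 2 or 3 or without IP + LC replicate 1 or 2, with log2 fold changes between -1.55 and -0.82 when 1 tumor was left out and edgeR adjusted p-values up to 0.201, and it held without LC replicate 1 (-1.40, adjusted p = 0.00516).

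The promoters of Siglecf and Marco are shown because each holds a copy of the core of the site bound by PU.1, the transcription factor of macrophages. The 250 bases before the RefSeq start site (GRCm38.p6, 5′ to 3′ on the strand of the gene) are given, with the core, GAGGAA or TTCCTC on the other strand, in capitals.
Siglecf, chr7:43351091-43351340: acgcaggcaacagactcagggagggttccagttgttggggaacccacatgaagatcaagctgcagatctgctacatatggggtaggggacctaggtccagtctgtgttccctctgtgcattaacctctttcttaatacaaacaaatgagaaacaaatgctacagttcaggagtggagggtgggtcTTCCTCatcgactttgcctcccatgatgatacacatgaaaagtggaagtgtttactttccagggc
Marco, chr1:120505025-120505274: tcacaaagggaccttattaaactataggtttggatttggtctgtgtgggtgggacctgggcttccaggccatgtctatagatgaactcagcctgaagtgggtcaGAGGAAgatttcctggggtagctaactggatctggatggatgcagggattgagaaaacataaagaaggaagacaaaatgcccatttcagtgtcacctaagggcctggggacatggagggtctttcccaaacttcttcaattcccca
The core begins 65 bases before the start of Siglecf and 146 bases before that of Marco. Such a core stood in 23.3% of 32851 promoter windows of this length, so its presence is not particular to these genes.

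Among the secreted proteins, Chil3 (ENSMUSG00000040809, chr3:106147554-106167564, minus strand) encodes a chitinase-like lectin, also called Ym1, that lacks chitinase activity. It had 1102, 1109 and 1316 CPM in the LC and 312, 134 and 197 CPM in the IP + LC tumors. All 3 LC tumors were close together, and the IP + LC tumors lay far below them with IP + LC replicate 1 the highest. The level fell 5.49-fold, from 1176 ± 122 to 214 ± 90.1 CPM, with a log2 fold change of -2.46 (SE 0.32, 95% interval -3.17 to -1.75, edgeR adjusted p = 0.00137). The UMIs of Chil3 made up 52.8% to 56.2% of the UMIs of the 9 genes in the LC tumors and 40.5% to 54.0% in the IP + LC tumors. Its transcripts share stretches of near-identical sequence with Chil4, also named Ym2, over 72.4% of the longest transcript in matches of up to 126 nucleotides. Chil4 had 30, 1 and 2 UMIs in the LC and 0, 2 and 0 in the IP + LC tumors, so few UMIs were assigned to it beside those of Chil3, and reads discarded as shared by both genes do not appear in the counts.

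Ear1 and Ear2 encode eosinophil-associated ribonucleases, small secreted enzymes that alveolar macrophages also express. Ear1 (ENSMUSG00000072601, chr14:43818765-43875517, minus strand) had 46.5, 79.1 and 60.2 CPM in the LC and 9.43, 1.17 and 4.36 CPM in the IP + LC tumors. This was the largest fold of the 9 genes, 13.0-fold, with a log2 fold change of -3.70 (SE 0.47, 95% interval -4.77 to -2.64, edgeR adjusted p = 0.00137), but its IP + LC values rested on only 13, 2 and 6 UMIs. With IP + LC replicate 1, the highest of these, left out, the log2 fold change of Ear1 was -4.51. Ear2 (ENSMUSG00000072596, chr14:44102654-44103534, plus strand) had 106.8, 139.5 and 126.3 CPM in the LC and 16.7, 13.4 and 20.3 CPM in the IP + LC tumors. It fell 7.44-fold, with a log2 fold change of -2.90 (SE 0.24, 95% interval -3.43 to -2.36) and the smallest adjusted p of the 9 genes (0.000558). The transcripts of these genes share 717 nucleotides at 96.4% identity, so the split of reads between them is uncertain. When each was summed with its near-identical relatives the log2 fold changes were -3.11 for both.

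The promoters of Ear1 and Ear2 are shown because they are nearly the same sequence, like the transcripts. Each is the 250 bases before the RefSeq start site (GRCm38.p6), and the RefSeq start of Ear1 lies inside the longer gene span that GENCODE gives.
Ear1, chr14:43819640-43819889: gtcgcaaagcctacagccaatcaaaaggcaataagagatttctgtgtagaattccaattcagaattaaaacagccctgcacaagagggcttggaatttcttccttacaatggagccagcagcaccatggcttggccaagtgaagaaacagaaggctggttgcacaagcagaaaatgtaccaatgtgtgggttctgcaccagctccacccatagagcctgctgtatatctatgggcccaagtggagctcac
Ear2, chr14:44102404-44102653: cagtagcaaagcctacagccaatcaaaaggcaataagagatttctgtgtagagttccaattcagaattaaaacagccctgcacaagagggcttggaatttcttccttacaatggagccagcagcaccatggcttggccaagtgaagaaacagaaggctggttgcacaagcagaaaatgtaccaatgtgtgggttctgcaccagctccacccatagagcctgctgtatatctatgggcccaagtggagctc
Aligned to each other they had 246 identical positions, 2 mismatched bases and 4 gap positions, an identity of 97.6%, while the other pairs of promoter windows of these genes reached 40.6% to 52.8%. RefSeq windows were found for 7 of the 9 genes, 9 windows in all because Pparg has 3 start sites, and none was matched for Fabp4 or Fabp5. The PU.1 core stood in 3 of the 9 windows, those of Siglecf and Marco and 1 of Pparg, and in neither Ear window. The element AGGTCA of nuclear receptors stood in 2 of the Pparg windows (14% of all windows), and the direct repeat 1 that PPARγ with its partner RXR binds was in 0 of the 9 (0.0335% of all windows). On both strands the E-box CACGTG and the AP-1 site TGANTCA were in 0 of the 9 windows, against 6.02% and 6.75% of all windows, and TATAAA was in 1 Pparg window, against 12.4%.

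The 2 fatty acid binding proteins differed in the size of their change. Fabp4 (ENSMUSG00000062515, chr3:10204088-10208576, minus strand), a carrier of fatty acids induced by PPARγ, had 272, 354 and 424 CPM in the LC and 84.1, 55.5 and 48.7 CPM in the IP + LC tumors. Fabp5 (ENSMUSG00000027533, chr3:10012548-10016607, plus strand), a related carrier also made by many epithelia, had 224, 162 and 169.5 CPM in the LC and 101, 96.3 and 98.8 CPM in the IP + LC tumors. In the LC group the highest Fabp5 value was that of LC replicate 1, the tumor with the lowest Fabp4 value. Fabp4 fell 5.59-fold (log2 fold change -2.48, SE 0.28, 95% interval -3.12 to -1.85, edgeR adjusted p = 0.000993), and Fabp5 fell 1.87-fold (log2 fold change -0.90, SE 0.20, 95% interval -1.36 to -0.44, adjusted p = 0.0124). The 2 intervals do not overlap, although the difference between the genes was not itself tested. The Fabp5 levels of the IP + LC tumors were the most even of the 9 genes, 98.6 ± 2.24 CPM. Leaving out LC replicate 1 moved its log2 fold change to -0.74 (edgeR adjusted p = 0.000408).

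Car4 (ENSMUSG00000000805, chr11:84957786-84966044, plus strand) encodes carbonic anhydrase 4, an enzyme at the cell surface that interconverts carbon dioxide and bicarbonate. Its level was 155, 197 and 185 CPM in the LC and 33.4, 16.9 and 28.3 CPM in the IP + LC tumors. The lowest LC tumor was thus well above the highest IP + LC tumor. Car4 fell 6.88-fold, from 179 ± 21.5 to 26.2 ± 8.42 CPM, with a log2 fold change of -2.78 (SE 0.28, 95% interval -3.40 to -2.16, edgeR adjusted p = 0.000821).

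Pparg (ENSMUSG00000000440, chr6:115360951-115490399, plus strand) encodes PPARγ itself. It had 15.5, 14.9 and 19.5 CPM in the LC tumors, from 9, 19 and 23 UMIs, and 5.80, 6.42 and 7.99 CPM in the IP + LC tumors, from 8, 11 and 11 UMIs. The groups did not overlap, and the level fell from 16.6 ± 2.50 to 6.74 ± 1.13 CPM. The log2 fold change was -1.31 (SE 0.31, 95% interval -2.01 to -0.60, edgeR adjusted p = 0.0157), a 2.47-fold lower level.

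**Figure D2:**
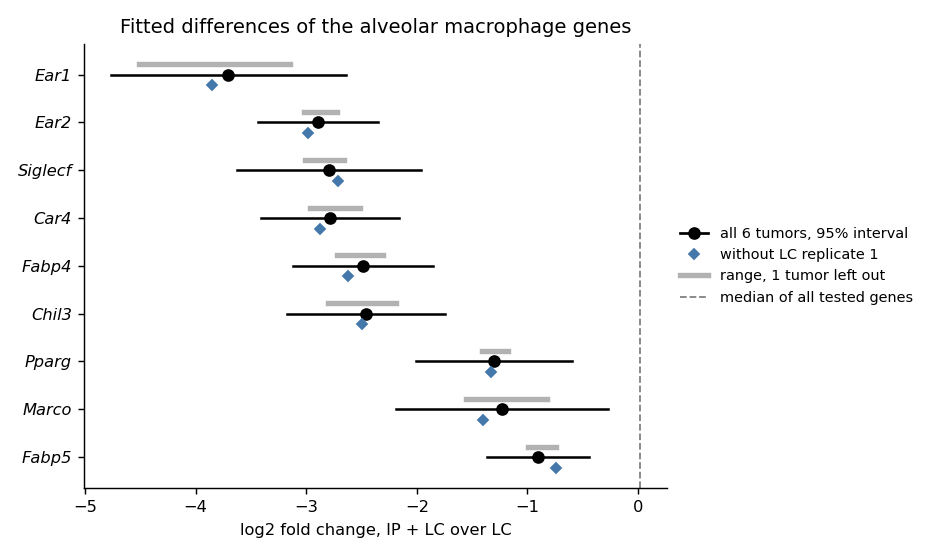
Fitted log2 fold change of IP + LC over LC for each gene (black point, line for the 95% interval), with the value without LC replicate 1 (blue diamond) and the range when each tumor was left out in turn (grey bar); the dashed line is the median of all tested genes, 0.018. Every interval lies below 0, from Ear1 at -3.70 to Fabp5 at -0.90.

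The genes fell into a range of sizes. Siglecf, Chil3, Ear1, Ear2, Fabp4 and Car4 had log2 fold changes of -3.70 to -2.46, and Pparg, Marco and Fabp5 of -1.31 to -0.90. The interval of Fabp5 did not overlap that of any of the 6 with the larger changes, whereas those of Pparg and Marco both overlapped the intervals of Siglecf, Chil3 and Fabp4, and that of Marco also overlapped the interval of Car4. Without LC replicate 1 the 9 log2 fold changes were between -3.85 and -0.74, with edgeR adjusted p-values from 4.67e-08 to 0.00593.

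Together the UMIs of the 9 genes made up 0.192%, 0.194% and 0.205% of all UMIs in the LC tumors and 0.0592%, 0.0348% and 0.0438% in the IP + LC tumors. The exact 95% binomial intervals, which cover counting error only, ran from 0.181% to 0.212% over the LC tumors and from 0.0320% to 0.0635% over the IP + LC tumors. As a summed level this was 2138 ± 198 CPM in the LC and 445 ± 124 CPM in the IP + LC group, and 962 ± 91.8 against 230.5 ± 34.1 CPM without Chil3. In tissue of mixed cells, fewer alveolar macrophages and less of these RNAs in each cell cannot be told apart. Nor can they be told apart from a change in other cells that make some of the 9 genes or in the alveolar tissue sampled.

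Genes shared by macrophages of all kinds did not follow the 9. Of 12 such genes 1 was lower (8.33%, against 19.6% of all tested genes), 5 were higher (41.7%, against 16.8%) and 6 did not pass. The median log2 fold change was 0.66. The number higher was 9 without LC replicate 1, when 28.3% of all genes were higher, and 2 to 4 when any other tumor was left out, when 7.61% to 11.2% of all genes were. Lyz2, which encodes a lysozyme similar in sequence to that of Lyz1 and is also strongly made by type 2 alveolar cells, was the one that fell (log2 fold change -1.11, SE 0.25, edgeR adjusted p = 0.0127). Fcgr1, the high-affinity receptor for IgG, rose most, from 23.4 ± 12.6 to 117 ± 16.4 CPM (log2 fold change 2.42, SE 0.33, adjusted p = 0.00162). The summed level of the 11 genes without Lyz2 was 2736, 1609 and 1665 CPM in the LC tumors and 2568, 3753 and 3397 CPM in the IP + LC tumors, with LC replicate 1 inside the range of the IP + LC group.

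Relative to these pan-macrophage RNAs the 9 genes were also lower in the IP + LC tumors. For every 1000 UMIs of the 11 pan-macrophage genes there were 717, 1306 and 1412 UMIs of the 9 genes in the LC tumors and 225, 88.3 and 125 in the IP + LC tumors. The ratio of the group means was 7.84, and gene by gene it was 19.4 for Ear1, 12.6 for Ear2, 12.02 for Siglecf, 11.2 for Car4, 9.28 for Fabp4, 8.75 for Chil3, 4.21 for Pparg, 3.79 for Marco and 3.03 for Fabp5. With IP + LC replicate 1 left out the ratio was 42.8 for Ear1 and 13.4 for Chil3, and no other gene's ratio moved by more than 1.5 times when any 1 tumor was left out. LC replicate 1, which had the highest pan-macrophage level of its group, had the lowest ratio of the LC tumors, and its value was still 3 times or more that of each IP + LC tumor.

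Genes of interstitial and recruited macrophages moved the other way in part. Of 16 tested 8 were higher (50%, against 16.8% of all tested genes), 2 were lower (12.5%, against 19.6%) and 6 did not pass. The median log2 fold change was 0.92. The number higher was 12 without LC replicate 1 (75%, against 28.3% of all genes in that fit) and 1 to 4 when any other tumor was left out. Without IP + LC replicate 2 it was 1 of 16 (6.25%), below the 7.61% of all genes in that fit. Spp1, the secreted protein osteopontin, had 1576, 417 and 275 CPM in the LC tumors and 1856, 2111 and 2193 CPM in the IP + LC tumors (log2 fold change 1.45, SE 0.56, adjusted p = 0.0860). Lyve1, a hyaluronan receptor of perivascular macrophages and of lymphatic endothelium, fell (log2 fold change -1.64, SE 0.29, adjusted p = 0.00466). The summed level of this list was 6595 CPM in LC replicate 1, 2661 and 2253 CPM in LC replicates 2 and 3, and 5181 to 6436 CPM in the IP + LC tumors. LC replicate 1 thus lay with the IP + LC group for these genes and with the LC group for the 9 alveolar macrophage genes.

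**Figure D3:**
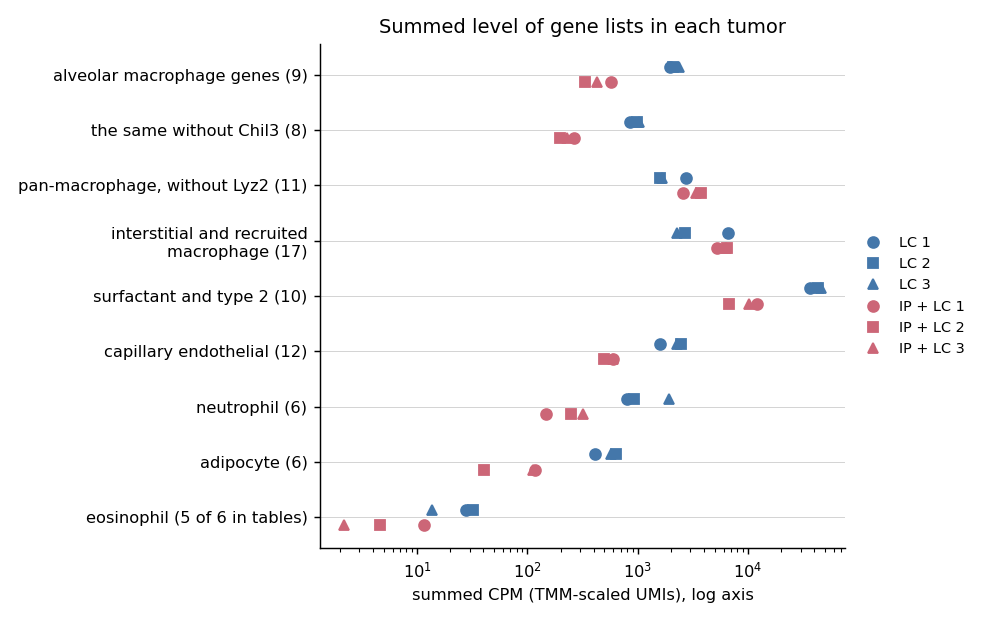
Summed level of 9 gene lists in every tumor, in CPM after TMM scaling on a log axis; the number of genes is in brackets, colors mark the group and symbols the replicate. The 9 alveolar macrophage genes sum to 1961 to 2352 CPM in the LC and 331.5 to 577 CPM in the IP + LC tumors, whereas for both other macrophage lists LC replicate 1 lies above LC replicates 2 and 3, within or above the range of the IP + LC tumors.

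The genes of the axis from GM-CSF to PPARγ changed in both directions. Of the 18 tested, 3 were lower (16.7%, against 19.6% of all tested genes), 5 were higher (27.8%, against 16.8%) and 10 did not pass, with a median log2 fold change of 0.36. Without LC replicate 1 the number higher was 8 (44.4%, against 28.3% of all genes in that fit). With any other tumor left out it was 3 or 4, with 1 or 2 lower, and of all genes 11.6% to 15.5% were then lower. Csf2, GM-CSF itself, had 2, 0 and 0 UMIs in the LC and 0, 2 and 2 in the IP + LC tumors, too few to test. The chains of its receptor were higher in the IP + LC group, in which every tumor lay above every LC tumor. The ligand-binding chain Csf2ra had a log2 fold change of 0.53 (SE 0.22, edgeR adjusted p = 0.0992), the signaling chain Csf2rb of 1.21 (SE 0.25, adjusted p = 0.00827) and Csf2rb2 of 1.22 (SE 0.32, adjusted p = 0.0218). Csf2rb2 is a paralog of very similar sequence, and the split of reads between it and Csf2rb is uncertain. The call of Csf2ra was lost under 12 of the alternative settings.

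Downstream of the receptor, the kinase Jak2 (log2 fold change 0.44), Stat5a (0.30) and Stat5b (-0.05) did not pass, and the signs of both STAT5 genes changed between settings. Of the transcription factors that shape macrophages, Spi1, which encodes PU.1, did not pass (0.42, SE 0.28, edgeR adjusted p = 0.299). Cebpa, a factor of alveolar macrophages and of type 2 cells, fell from 78.9 ± 16.3 to 30.1 ± 4.196 CPM (log2 fold change -1.41, SE 0.23, adjusted p = 0.00353), while its relative Cebpb rose from 170 ± 55.2 to 358 ± 28.3 CPM (1.06, SE 0.26, adjusted p = 0.0188). Bhlhe40 and Bhlhe41 encode repressors that maintain the self-renewal and identity of alveolar macrophages. Bhlhe40 rose (1.46, SE 0.24, adjusted p = 0.00312), and Bhlhe41 did not pass (0.68, SE 0.50, adjusted p = 0.339), with 1.72, 34.5 and 37.3 CPM in the LC and 49.3, 34.4 and 48.65 CPM in the IP + LC tumors.

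Of the other regulators on this list, Rxra, the partner of PPARγ, had a log2 fold change of -0.25 (SE 0.29, edgeR adjusted p = 0.562) and changed sign without LC replicate 1. Nr1h3, the sterol receptor LXRα, was lower (-0.61, SE 0.24, adjusted p = 0.0958), a call that 10 of the alternative settings removed. Klf4, a factor of monocytes and also of endothelium and epithelium, was lower (-1.55, SE 0.51, adjusted p = 0.0492), but LC replicate 1, at 37.9 CPM, lay with the IP + LC tumors at 36.8 to 67.5 CPM and far below LC replicates 2 and 3 at 184 and 199 CPM. Of the TGF-β genes, Tgfb1 (0.63), Tgfbr1 (-0.21) and Tgfbr2 (-0.29) did not pass, nor did Egr2 (-0.07), a factor of alveolar macrophages whose sign changed between settings.

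Other genes of alveolar macrophages were mixed. Of 13 tested 6 were lower (46.2%, against 19.6% of all tested genes), 2 were higher (15.4%, against 16.8%) and 5 did not pass. The median log2 fold change was -0.31. The summed level was 2218 to 2392 CPM in the LC and 2097 to 2182 CPM in the IP + LC tumors. Without Lgals3 and Cd9 it was 825 to 969 CPM in the LC and 810 to 871 CPM in the IP + LC tumors. These ranges overlapped. The number higher was 5 without LC replicate 1 (38.5%, against 28.3% of all genes in that fit). Without any other tumor it was 1 or 2, when 7.61% to 11.2% of all genes were higher. Of the 6 lower genes 2, Krt79 and Cidec, passed the filter on low counts only through the LC group. Krt79, a keratin listed among alveolar macrophage markers, fell most, from 14, 27 and 30 UMIs in the LC to 7, 0 and 1 UMIs in the IP + LC tumors (edgeR adjusted p = 0.00496). Cidec, a lipid droplet protein, fell from 30.1 ± 10.6 to 2.61 ± 2.28 CPM (log2 fold change -3.60, SE 0.53, adjusted p = 0.00215). Il1rn, the secreted antagonist of the interleukin-1 receptor, rose from 19.9 ± 2.58 to 73.3 ± 20.5 CPM (1.87, SE 0.28, adjusted p = 0.00232). Lgals3, the lectin galectin-3, which many cells including carcinoma cells make, did not pass (0.50, SE 0.26, adjusted p = 0.194). The shared fall of the 9 was therefore not a feature of every gene listed for this cell type.

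Of 13 tested genes of lipid handling, among them known PPAR targets, 4 were lower (30.8%, against 19.6% of all tested genes). Of the rest 0 were higher and 9 did not pass, and the median log2 fold change was -0.31. The number lower was 9 without LC replicate 1 (64.3%, against 28.7% of all genes in that fit). Without any other tumor it was 3 or 4, when 11.6% to 15.5% of all genes were lower. Cidec and Nr1h3, given above, were 2 of the 4. Plin2, which coats lipid droplets, did not pass (log2 fold change 0.36, SE 0.19, edgeR adjusted p = 0.189), nor did Npc2, a cholesterol carrier of lysosomes (-0.38, SE 0.21, adjusted p = 0.218).

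The relatives of the 9 genes, counted here without the 9 themselves, were few, and 19.6% of all tested genes were lower. Some passed the filter on low counts only through the group in which they were high, so the counts are descriptions. In the Siglec family 3 of 4 tested relatives were lower and 1, Siglec1, the sialoadhesin of other tissue macrophages, was higher (log2 fold change 1.37, SE 0.46, edgeR adjusted p = 0.0549); Cd33 was lower (-0.99, SE 0.35, adjusted p = 0.0657), and both calls were lost under some settings. One of the 3 lower genes passed the filter through the LC group alone, and Siglec1 through the IP + LC group alone. The number of these relatives lower was 3 without LC replicate 1 and 0 or 1 without any other tumor. Among the 4 tested class A scavenger receptors other than Marco, Msr1 rose from 38.0 ± 23.9 to 118 ± 7.64 CPM (1.73, SE 0.36, adjusted p = 0.00942), opposite to Marco, and Scara5, a ferritin receptor that passed the filter only through the LC group, fell (-1.75, SE 0.42, adjusted p = 0.0165). Msr1 had 65.4 CPM in LC replicate 1 and 27.4 and 21.2 CPM in LC replicates 2 and 3. Of these 4 receptors 2 were lower, against 0 without LC replicate 2 and 1 without LC replicate 3 or IP + LC replicate 1 or 2. In the chitinase-like family 2 of 3 tested relatives of Chil3 were lower, and Chid1 did not pass (0.25, SE 0.34, adjusted p = 0.626).

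The 3 tested relatives of Ear1 and Ear2 among the ribonucleases were lower, and 2 or 3 were when 1 tumor was left out. Rnase4, a ribonuclease made by many epithelia and by liver, fell from 589 ± 160 to 155 ± 40.5 CPM (log2 fold change -1.93, SE 0.28, edgeR adjusted p = 0.00218), and Rnase6 was lower with a smaller change (-0.97, SE 0.32, adjusted p = 0.0530). Of the 3 tested PPAR and RXR receptors other than Pparg, 0 were lower and 0 higher. Ppard, the most broadly expressed PPAR, did not pass in this fit (0.79, SE 0.36, adjusted p = 0.138) and passed as higher under 6 of the alternative settings. Fabp1, the liver-type fatty acid carrier, had 8, 24 and 25 UMIs in the LC and 0, 1 and 0 in the IP + LC tumors. It passed the filter only through the LC group. Of 5 tested carbonic anhydrases other than Car4, 3 were lower, led by Car3, a form of muscle and fat (-2.81, SE 0.46, adjusted p = 0.00348), which had 184 CPM in LC replicate 1 and 577 and 516 CPM in LC replicates 2 and 3. Car13 did not pass (0.62, SE 0.34, adjusted p = 0.210). The number lower was 3 whichever tumor was left out. Car6, a secreted form, had 2, 2 and 1 UMIs in the LC and 13, 12 and 14 UMIs in the IP + LC tumors. It was not tested with all 6 tumors, and was tested and higher in 4 of the fits that left out 1 tumor.

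**Figure D4:**
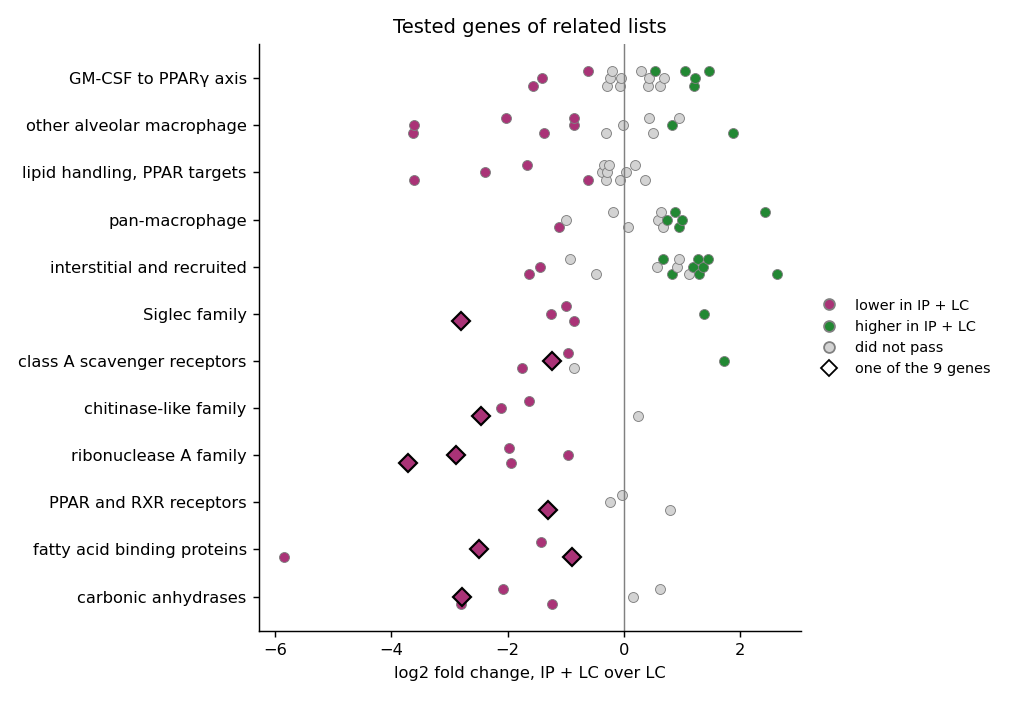
Log2 fold change of IP + LC over LC for every tested gene of 12 related lists, colored by the edgeR call at an adjusted p below 0.1, with diamonds for the 9 alveolar macrophage genes. All 9 diamonds lie at -0.90 or lower, while the axis from GM-CSF to PPARγ and the other macrophage lists hold genes that were higher; the leftmost point, Fabp1, rests on 0, 1 and 0 UMIs in the IP + LC group.

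Markers of other cells that make some of the 9 genes were lower too. Of 12 capillary endothelial markers, a source of Fabp4 and Car4, 11 were lower and 0 higher, with a median log2 fold change of -1.76 and a summed level of 1586 to 2480 CPM in the LC and 493 to 597 CPM in the IP + LC tumors. Ednrb, an endothelin receptor of alveolar capillaries, fell most (-2.89, SE 0.42, edgeR adjusted p = 0.00196), Cldn5, a tight junction protein, had the highest level and fell as well (-2.26, SE 0.25, adjusted p = 0.000909), and Apln, the peptide apelin, did not pass (-0.17, adjusted p = 0.707). The 6 adipocyte markers had summed levels of 406 to 635 CPM in the LC and 40.9 to 118 CPM in the IP + LC tumors. Of the 4 that were tested 3, among them Adipoq, passed the filter only through the LC group. The hormone adiponectin, Adipoq, had 13, 90 and 93 UMIs in the LC and 8, 3 and 13 UMIs in the IP + LC tumors. The part of endothelium and fat in the fall of Fabp4, Car4 and Pparg was not tested.

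Of 5 tested neutrophil markers 3 were lower, against 19.6% of all tested genes, and 0 higher. The neutrophil markers summed to 797 to 1924 CPM in the LC and 146.5 to 318 CPM in the IP + LC tumors. S100a9, a calcium-binding protein abundant in neutrophils, fell from 692 ± 376 to 109 ± 45.4 CPM (log2 fold change -2.66, SE 0.44, edgeR adjusted p = 0.00364), and Retnlg, a resistin-like protein, fell likewise (-2.70, SE 0.28, adjusted p = 0.000859), but Csf3r, the receptor of the neutrophil growth factor G-CSF, did not pass (-0.23, adjusted p = 0.653). Ly6g, a defining surface marker, had at most 2 UMIs in any library. The neutrophil part in the Chil3 level was not tested.

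The eosinophil markers were low. Of the 5 in the tables, 3 had at most 3 UMIs in every library, and Prg2, the major basic protein that defines eosinophil granules, had at most 1. The summed level was 13.6 to 32.1 CPM in the LC and 2.18 to 11.6 CPM in the IP + LC tumors. Alox15, a lipoxygenase of eosinophils and resident macrophages, was the only one tested, with 9, 29 and 7 UMIs in the LC and 10, 7 and 1 in the IP + LC tumors, and was lower (log2 fold change -1.85, SE 0.66, edgeR adjusted p = 0.0657). Of 4 tested dendritic cell markers 2 were lower, Ccr7 (-0.70, adjusted p = 0.0740) and Cd209a (-1.17, adjusted p = 0.0662), the latter in the test only through the LC group, and 0 to 4 were lower when 1 tumor was left out. The call of Alox15 was lost without LC replicate 2 or without IP + LC replicate 2 or 3. Siglecf itself had 16.1 to 22.4 CPM in the LC tumors, within the range of the summed eosinophil markers there. The eosinophil part in the fall of Siglecf, Ear1 and Ear2 was not tested.

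Surfactant and type 2 alveolar genes, which mark the normal alveolus, fell together with the 9. Of 10 tested 9 were lower, against 19.6% of all tested genes, and 0 higher, with a median log2 fold change of -1.87. Sftpc, surfactant protein C, had the highest level, 27466 ± 3357 CPM in the LC and 6347 ± 1865 CPM in the IP + LC group (-2.11, SE 0.33, edgeR adjusted p = 0.00258), and Sftpa1, surfactant protein A, fell most (-2.54, SE 0.32, adjusted p = 0.00137). Etv5, a transcription factor of type 2 cells, had the smallest change of the list (-1.15, SE 0.40, adjusted p = 0.0602). The part of the amount of alveolar tissue in the samples in the fall of the 9 was not tested.

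The genes outside the 9 whose pattern over the 6 tumors was most like their median pattern were Hc, Dynlrb2, Ctla2a, Sftpc and Mettl7a1. Likeness was the root mean square distance between profiles of log2(CPM + 4), centred for each gene, over 6 tumors and 11231 genes, and it was 0.093, 0.107, 0.127, 0.147 and 0.155 on the log2 scale for these. Hc, complement component C5, had 279, 322 and 377 CPM in the LC and 82.7, 49.6 and 61.0 CPM in the IP + LC tumors. Dynlrb2, a dynein light chain of cilia, had 103, 103 and 105 CPM in the LC and 25.4, 15.2 and 19.6 CPM in the IP + LC tumors. All 5 were lower in the IP + LC group, which the choice by likeness fixed.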

How the data were processed

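Total RNA of tumor tissue (3 LC and 3 IP + LC mice) was made into 3′ barcoded oligo-dT libraries with a UMI of 10 nucleotides. Per the labels and the study's methods, the authors extracted UMIs with UMI-tools 1.1.1, trimmed reads with Trim Galore 0.6.7, mapped them to GRCm38 with HISAT2 2.2.1, assigned them with featureCounts 2.0.1 and removed duplicated UMIs. The deposited values are these raw counts of UMIs per gene, with 1 table per tumor. The annotation release and the strand setting are not given in the sources used here. Reads of near-identical genes can be split between them or lost.

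Differences were tested with edgeR 4.0.16 under R 4.3.3. The filterByExpr defaults (minimum count 10, minimum total 15) selected the genes, TMM gave scaling factors between 0.905 and 1.07, and IP + LC was compared with LC by the quasi-likelihood test, Benjamini-Hochberg adjustment over all tested genes and the limit of 0.1 that the study states. The standard error is the log2 fold change over the square root of F, and 95% intervals use the t distribution of the fit. The spread between replicates (root of edgeR's common dispersion) came to 34.4% for the LC group, 13.7% without LC replicate 1 and 11.0% in the IP + LC group. Positions and overlaps came from GENCODE M21, which holds all 31130 identifiers of the tables, near-identical transcripts (at least 81 nucleotides at 95% identity) from blastn 2.17.0+, and promoters from RefSeq.

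The 9 genes, the other gene lists and the tests were chosen with earlier results of these data known, so that the counts over the lists are descriptions. Named besides the 9 genes are all genes of the GM-CSF to PPARγ list, from every other list the tested gene with the highest mean CPM and those with the highest and lowest log2 fold change, any relative that shares reads with 1 of the 9, and the 5 genes nearest in pattern. One gene that this rule names is not reported here. Prg2, Ly6g, Car6 and Cd9, outside this rule, were named after their values were seen. The replicate numbers of the titles did not pair the tumors (correlation of deviations 0.023, -0.111 and 0.100), so the main fit has no replicate block. Alternatives were DESeq2 size factors, upper quartile and library size scaling, other filters, DESeq2 1.42.0, limma 3.58.1 voom with and without sample quality weights, a replicate block, a limit of 0.05, libraries thinned to the smallest, near-identical genes summed, and fits leaving out 1 tumor each. The summed pan-macrophage level without Lyz2, its ratios with 1 tumor left out and the family counts without the 9 genes were added after the data were seen. The summed level of other alveolar macrophage genes without Lgals3 and Cd9 was added then too.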

Additional observations from a re-analysis of the deposited data

How the results depend on the processing

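All 9 alveolar macrophage genes kept a lower level in the IP + LC group under every alternative that tested them, and Marco was the only one to lose its call. The number that passed as lower was 8 or 9 in the fits that left out 1 tumor, 8 at an adjusted p limit of 0.05, 6 of 7 tested after thinning to the smallest library, 5 of 5 tested with at least 10 UMIs in every library, and 9 in the other fits; 0 passed as higher in any. With the replicate block all 9 passed (edgeR adjusted p 0.00489 to 0.0652) and 3410 genes passed in all. The number of genes that passed, 4088, was 6233 in limma voom with sample quality weights, 2352 after thinning, and 2265 to 6691 with 1 tumor left out, highest without LC replicate 1. Library size scaling alone shifted the median log2 fold change of all genes by 0.158. Among 1131 values of 68 named genes under the alternatives 995 kept direction and side of the limit, 95 were weaker, 25 stronger and 16 reversed, and the reversed values belonged to genes that had not passed. The log2 fold change of Egr2 was 0.090 under library size scaling, 0.026 without the filter, 0.074 in limma voom and 0.328 with quality weights. That of Stat5b was 0.109 under library size scaling and 0.065 without the filter, and that of Stat5a was -0.072 with quality weights. With 1 tumor left out, log2 fold changes ranged from -0.386 to 0.121 for Apln, -0.054 to 0.664 for Chid1, -0.435 to 0.150 for Csf3r, -0.400 to 0.287 for Egr2, -0.428 to 0.081 for Rxra and -0.207 to 0.119 for Stat5b. The causes of these changes were not tested. Depth limits the genes with few UMIs, above all Siglecf, Ear1 and Pparg in the IP + LC tumors.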
